A study of Arabidopsis thaliana with 6 samples.

Results

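The nuclear photosynthesis genes examined here are 45 loci that encode the light-harvesting antenna proteins (*LHCA* and *LHCB*), the nuclear subunits of photosystem I (*PSA*) and photosystem II (*PSB*), and the small subunit of Rubisco (*RBCS*). They were taken by locus identifier from the 28775 genes of the count table, without a filter on their values. Earlier results of these data were known when the members were chosen. They comprise 9 genes of the trimeric antenna LHCII, 5 of the minor antenna of photosystem II and 6 of the antenna of photosystem I. The others are 12 photosystem I subunits, 9 photosystem II subunits and 4 Rubisco small subunits. RNA of whole *Arabidopsis* seedlings was sequenced in 3 genotypes with 2 replicate libraries each. MA-Line1 expresses 35S:MA-JcERFVII2, in which alanine takes the place of the cysteine after the first methionine so that the *Jatropha* group VII ethylene response factor is stabilized in air. MC-Line3 expresses 35S:MC-JcERFVII2, the wildtype form of the factor, which the oxygen-dependent N-degron pathway can degrade. Col-0 is the untransformed wild type and the ecotype of both lines. All seedlings were 10 d old by the sample labels (the study's text gives a younger age), were kept in air at 23 °C with 16 h of light and a dark period of 8 h, and were collected when the light period ended. The CaMV 35S promoter drives the transgene in most tissues, and both lines are homozygous with a single insertion. Each construct is represented by 1 line, so line and construct cannot be told apart. *JcERFVII2* itself was not among the genes counted, and the transgene could therefore not be checked in these values.

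In the thylakoid membrane, the antenna proteins bind chlorophyll and carotenoids and pass excitation energy to the reaction centres of both photosystems. The core proteins of the reaction centres are made in the chloroplast, whereas the antenna, many peripheral subunits and the small subunit of Rubisco, the enzyme that fixes CO2, are encoded in the nucleus, translated in the cytosol and imported. Their transcripts are among the most abundant of green tissue and are known to follow light, the circadian clock, sugars and signals from the plastid.

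Several members lie beside near-identical copies, and sequences from 2 such groups show how little separates the copies that the counts have to tell apart. The coding sequences of *LHCB1.1*, *LHCB1.2* and *LHCB1.3*, neighbours on chromosome 1, differed at 47 of 804 positions (TAIR10.1, RefSeq). Coding bases 25 to 84, chosen as a window of 60 bases where the copies differ most, are printed 5′ to 3′. The 8 positions that differ among the copies are in capitals:
LHCB1.1: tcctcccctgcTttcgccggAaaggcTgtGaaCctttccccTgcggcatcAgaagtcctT
LHCB1.2: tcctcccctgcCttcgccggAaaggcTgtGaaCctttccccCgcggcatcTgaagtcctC
LHCB1.3: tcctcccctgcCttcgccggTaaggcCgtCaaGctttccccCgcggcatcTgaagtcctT

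*RBCS1B*, *RBCS2B* and *RBCS3B*, neighbours on chromosome 5, differed at 25 of 546 positions that all 3 share. Coding bases 91 to 150, chosen and printed in the same way, hold 8 differing positions, again in capitals:
RBCS1B: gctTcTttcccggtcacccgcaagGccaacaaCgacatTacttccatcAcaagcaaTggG
RBCS2B: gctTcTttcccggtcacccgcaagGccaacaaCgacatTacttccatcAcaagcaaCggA
RBCS3B: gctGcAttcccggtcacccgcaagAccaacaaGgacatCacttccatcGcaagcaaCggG

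*RBCS1A* lies alone on chromosome 1 and was 90.4% to 90.6% identical to the other *RBCS* copies, which were 96.7% to 97.3% identical to each other. Stretches of 100 exon bases found elsewhere in the genome made up between 1.51% and 4.44% of the exons of the *LHCB1* copies, 10.7% of *LHCB2.1*, 13.7% of *LHCB2.2*, 8.20% of *RBCS1B* and 11.8% of *RBCS3B*. The other 36 members had none. How reads of such stretches were divided between copies is not known, so the families are also given as sums. Another counted gene overlaps 16 of the members, and the library kit does not keep the strand.

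The libraries held between 53084008 and 65271057 counts. All 45 members were well counted, with between 1973 and 1338765 counts in a library, and all passed the filter on low counts. Counts were scaled by the trimmed mean of M values (TMM), and levels are given as CPM, the counts of a gene relative to the scaled total of its library. Replicate libraries differed in the members by a median of 0.04 on the log2 scale in MA-Line1, 0.07 in MC-Line3 and 0.08 in Col-0. The replicates of the wild type stood furthest apart over all genes (chi-square per gene 5.33 in MA-Line1, 9.26 in MC-Line3 and 25.5 in Col-0). The evening clock gene *PRR5* had 12.1 and 13.5 CPM in MA-Line1, 22.8 and 22.9 CPM in MC-Line3, and 33.5 and 8.10 CPM in Col-0, so the counts of members called are also given without each Col-0 library. Of 16 root markers, 10 were lower in MA-Line1 than in Col-0 and 0 were higher. Among all genes tested, 19.1% were called lower there and 18.0% higher. In MC-Line3, 2 markers were lower and 3 were higher, against 16.7% and 14.5% of all genes tested. Against Col-0, the 16 markers had a median log2 fold change of -1.09 (MA-Line1) or -0.06 (MC-Line3). Their summed level was 57.4 and 62.9 CPM in MA-Line1, 88.6 and 87.8 CPM in MC-Line3, and 96.4 and 104 CPM in Col-0, and 0 of the 16 were at 0 in every library. Root hair marker *COBL9* had 0.754 and 0.452 CPM in MA-Line1, 1.09 and 1.66 CPM in MC-Line3, and 1.303 and 1.37 CPM in Col-0, and the more abundant *SCR* had between 27.5 and 40.4 CPM in a library. Seed storage markers summed to at most 0.103 CPM in a library, with 2 of 9 at 0 throughout, and floral organ markers summed to between 12.8 and 24.9 CPM, with 3 of 5 higher in MA-Line1 than in Col-0. The part of root and floral tissue in the results below was not tested. In RNA of whole seedlings, fewer green cells and less of these transcripts per cell cannot be told apart.

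Together the 45 genes took a smaller part of the transcriptome in both lines than in Col-0, and the smallest in MA-Line1. Their counts were 13.6% and 14.1% of the library in MA-Line1, 15.2% and 15.9% for MC-Line3, and 16.8% and 17.0% in Col-0. The 3 genotypes did not overlap. The mean share was 0.822 times that of Col-0 for MA-Line1 and 0.923 times for MC-Line3. These shares are of all counts, without TMM.

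**Figure D1:**
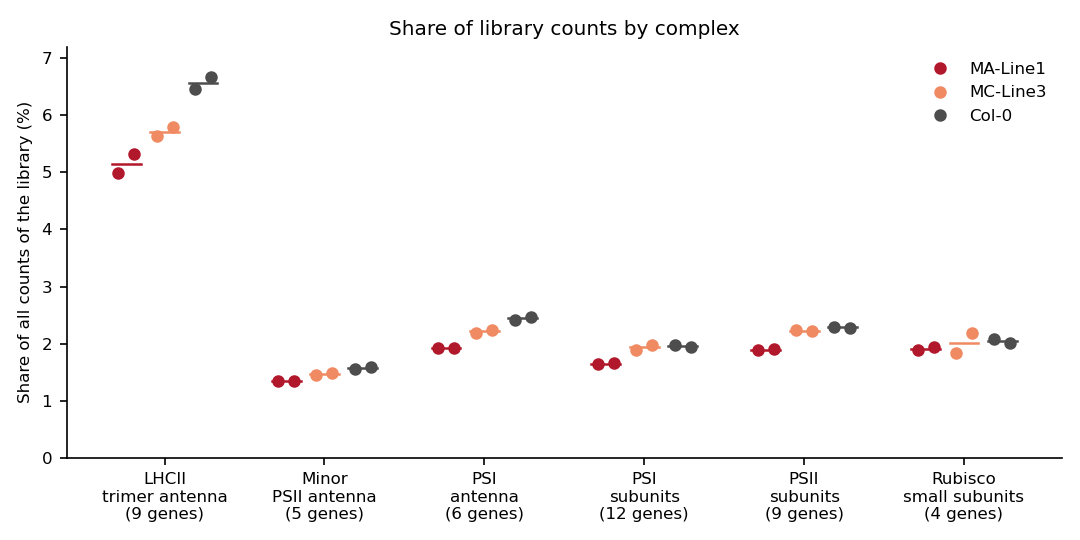
Share of all counts of a library (%, vertical axis) taken by the genes of each complex (horizontal axis), with MA-Line1, MC-Line3 and Col-0 from left to right in each complex. Points are libraries and lines are means of 2 libraries. LHCII took 4.98% and 5.32% in MA-Line1 and 6.47% and 6.67% in Col-0, and of the 6 complexes the Rubisco small subunits had the MA-Line1 mean closest to that of Col-0, at 0.936 times.

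LHCII, the main store of antenna chlorophyll, accounted for the largest part, with 4.98% and 5.32% of the library in MA-Line1, 5.64% and 5.79% for MC-Line3, and 6.47% and 6.67% in Col-0. The antenna of photosystem I had 1.92% in both MA-Line1 libraries, 2.19% and 2.23% for MC-Line3, and 2.41% and 2.47% in Col-0. The minor antenna had 1.34% and 1.35% in MA-Line1, 1.45% and 1.49% for MC-Line3, and 1.55% and 1.60% in Col-0. All 3 antenna groups were thus ordered MA-Line1, MC-Line3, Col-0 from low to high without overlap. Photosystem I subunits had 1.64% and 1.66% in MA-Line1, 1.89% and 1.97% for MC-Line3, and 1.98% and 1.93% in Col-0. Photosystem II subunits had 1.88% and 1.91% in MA-Line1, 2.23% and 2.22% for MC-Line3, and 2.28% in both Col-0 libraries. Photosystem II subunits were ordered in the same way without overlap, while for photosystem I subunits MC-Line3 overlapped Col-0 and only MA-Line1 lay apart. MC-Line3 was at 0.988 times (photosystem I) and 0.977 times (photosystem II) the Col-0 mean. Rubisco small subunits had 1.89% and 1.93% in MA-Line1, 1.84% and 2.18% for MC-Line3, and 2.08% and 2.00% in Col-0, and here MC-Line3 spanned both other genotypes.

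Gene by gene, 41 of the 45 members were lower in MA-Line1 than in Col-0 and 0 were higher, with the threshold at an adjusted p of 0.05 (edgeR's quasi-likelihood test, adjusted by Benjamini-Hochberg over all 21206 genes tested). Of all genes tested, 37.1% were called in this comparison, 19.1% lower and 18.0% higher. The median log2 fold change was -0.43 over the members and 0.01 over all genes. The 4 members not called were *LHCB4.3*, *PSAE2*, *RBCS1A* and *RBCS1B*. Scaled by library size alone, where the median of all genes moved to 0.18, 34 members were lower, 1 (*LHCB4.3*) was higher, and their median was -0.26. Without Col-0 replicate 1, 41 members were called, and without Col-0 replicate 2, 43 were.

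In MC-Line3, 20 of the 45 were lower than in Col-0 and 0 were higher, where 31.2% of all genes were called, 16.7% lower and 14.5% higher. The median was -0.19 over the members and 0.01 over all genes. Of the 20 called, 18 were among the 20 antenna genes and 2 among the 21 photosystem subunits, whose medians were -0.27 and -0.14. Whether antenna and subunit genes differed in their change was not tested. The count of 20 depended on the processing: it was 7 with library size alone, where the median of all genes was 0.14 and that of the members -0.06, and 10 in a fit of MC-Line3 and Col-0 only. It was 12 without MA-Line1 replicate 1, 12 without MA-Line1 replicate 2, 12 without MC-Line3 replicate 1 and 11 without MC-Line3 replicate 2, whereas 23 were called without Col-0 replicate 1 and 29 without Col-0 replicate 2. *LHCA3*, *LHCB1.1*, *LHCB1.3*, *LHCB1.5* and the 3 *LHCB2* copies were called in each setting tried. Both comparisons share the same Col-0 libraries.

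**Figure D2:**
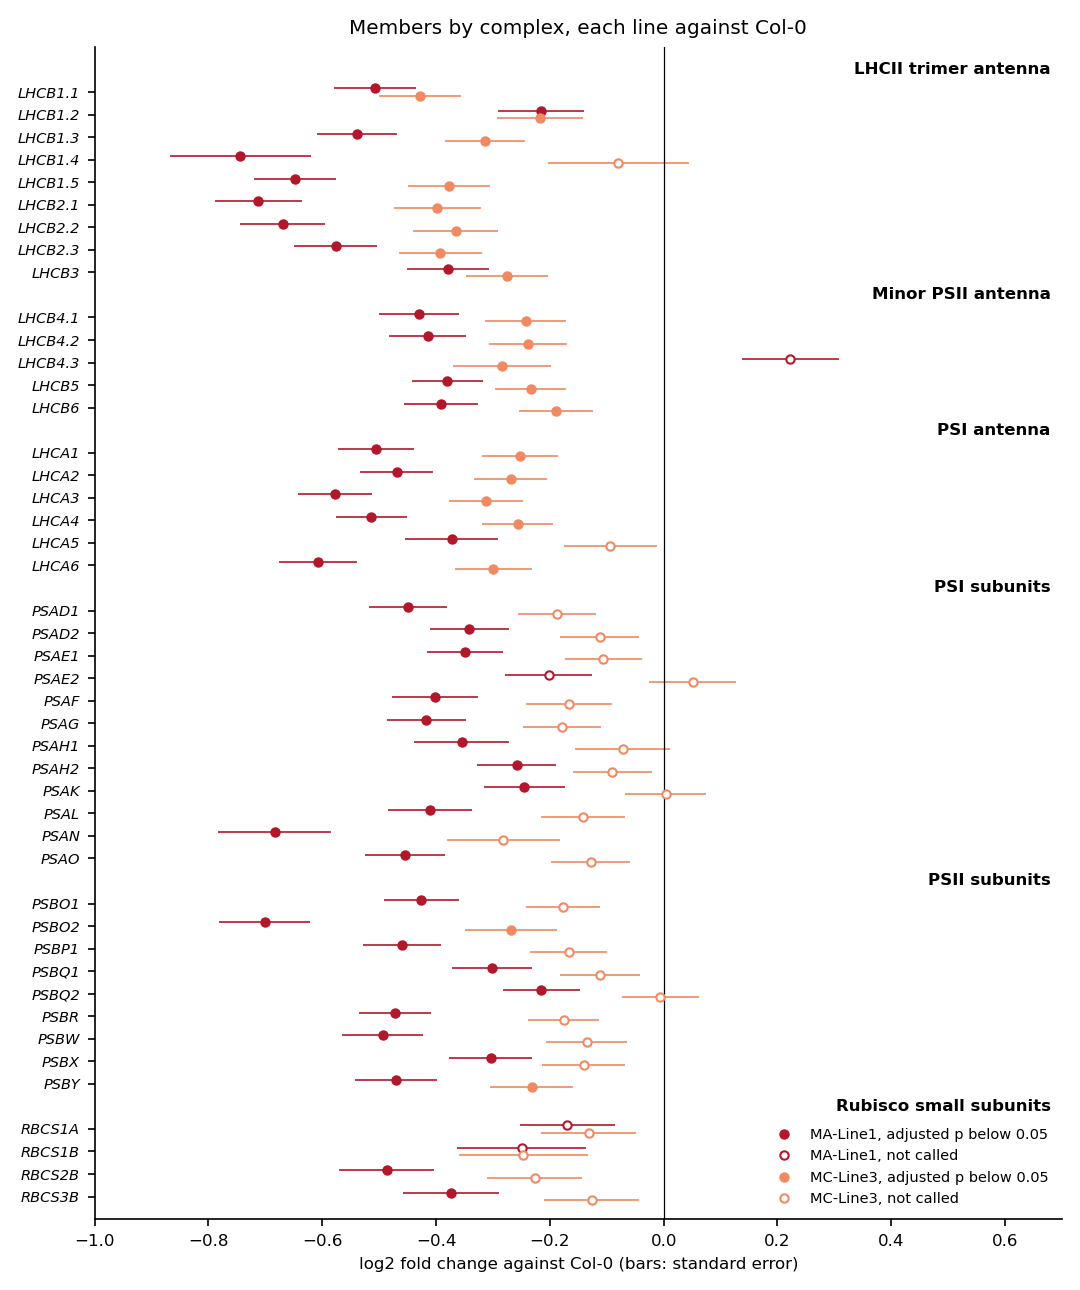
Log2 fold change against Col-0 (horizontal axis, 0 marked) of the 45 members (vertical axis, by complex) in MA-Line1 (dark) and MC-Line3 (light). Points are fitted values, bars are standard errors, and filled points passed the threshold of 0.05 on the adjusted p of edgeR. In MA-Line1 41 members are filled and lower, and in MC-Line3 the filled points are 18 antenna genes, *PSBO2* and *PSBY*.

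Tested directly against MC-Line3, 29 members were lower and 1 was higher in MA-Line1, where 20.0% of all genes were called, 8.68% lower and 11.3% higher. The median was -0.25 over the members and -0.01 over all genes. Among complexes, 6 of 6 genes of the photosystem I antenna, 10 of 12 photosystem I subunits and 6 of 9 photosystem II subunits were lower, against 5 of 9 in LHCII, 1 of 5 in the minor antenna and 1 of 4 in *RBCS*. This count rested on all the libraries of both lines: 2 members were called without MA-Line1 replicate 1, 4 without MA-Line1 replicate 2, 8 without MC-Line3 replicate 1 and 6 without MC-Line3 replicate 2. *LHCB4.3* was called in each of these fits.

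The order of the libraries was read from the same scaled CPM as the changes above and is not separate evidence. For 33 of the 45 members (73.3%) both MA-Line1 libraries lay below both MC-Line3 libraries, which lay below both Col-0 libraries, and the same held for 7.77% of all genes tested. MA-Line1 lay below Col-0 without overlap for 44 members, against 34.2% of all genes. MC-Line3 lay below Col-0 for 36 members, against 31.7% of all genes. MA-Line1 lay below MC-Line3 for 40 members, against 31.9% of all genes. The share fully ordered was highest among photosystem II subunits, with 8 of 9, and lowest among *RBCS*, with 1 of 4.

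In LHCII, 9 of 9 genes were lower in MA-Line1 (median -0.58) and 8 of 9 in MC-Line3 (median -0.37). Per kilobase of exon, *LHCB1.3* (*AT1G29930*, chr1:10477885-10479114) had the highest level of all members, 14930 CPM per kilobase over the 6 libraries. It had 14327 and 16084 CPM in MA-Line1, 17642 and 17904 CPM in MC-Line3, and 22559 and 21634 CPM in Col-0. The genotypes did not overlap, and its log2 fold change was -0.54 ± 0.07 (SE) in MA-Line1 (adjusted p = 0.0002, edgeR) and -0.31 ± 0.07 in MC-Line3 (adjusted p = 0.00684, edgeR).

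*LHCB1.4* (*AT2G34430*, chr2:14524607-14525918) fell most of all 45 members in MA-Line1, with 976 and 1056 CPM there, 1541 and 1677 CPM in MC-Line3, and 1970 and 1432 CPM in Col-0. MA-Line1 lay below all other libraries, whereas the MC-Line3 values lay between those of the Col-0 replicates, which differed more for this gene than for any other member. Its log2 fold change was -0.74 ± 0.12 (SE) in MA-Line1 (adjusted p = 0.000937, edgeR) and -0.08 ± 0.12 in MC-Line3 (adjusted p = 0.666, edgeR). Its rank in MA-Line1 rested on Col-0 replicate 1: without that library its value there was -0.49 and *PSBO2* fell most, at -0.67, and without Col-0 replicate 2 it was -0.95. Without Col-0 replicate 1 the value in MC-Line3 was 0.16, and without Col-0 replicate 2 it was -0.30 with a call.

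*LHCB1.1* (*AT1G29920*) fell most in MC-Line3. It had 6848 and 7610 CPM in MA-Line1, 7785 and 7475 CPM in MC-Line3, and 10016 and 10527 CPM in Col-0. Both lines lay below Col-0 and overlapped each other, with log2 fold changes of -0.51 ± 0.07 (SE) in MA-Line1 (adjusted p = 0.000334, edgeR) and -0.43 ± 0.07 in MC-Line3 (adjusted p = 0.00134, edgeR). Its tandem neighbour *LHCB1.2* (*AT1G29910*) changed least of the LHCII genes in MA-Line1, with 6533 and 7345 CPM there, 7076 and 6788 CPM in MC-Line3, and 7803 and 8311 CPM in Col-0. The log2 fold change was -0.22 ± 0.08 in both lines (adjusted p = 0.0438 in MA-Line1 and 0.0487 in MC-Line3, edgeR), and the lines again overlapped.

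The proteins of the 3 *LHCB2* copies are among those phosphorylated in state transitions. Their genes had log2 fold changes between -0.71 and -0.58 for MA-Line1 and between -0.40 and -0.37 for MC-Line3. *LHCB3*, a trimer subunit without that phosphorylation site, had -0.38 and -0.27. A sum of the copies removes the division of counted reads between them, but does not restore reads that were left uncounted. Summed before the fit, *LHCB2* was at -0.68 ± 0.07 (SE) in MA-Line1 (adjusted p = 3.79e-05, edgeR) and -0.39 ± 0.07 in MC-Line3 (adjusted p = 0.00192, edgeR). The summed *LHCB1* family was at -0.52 ± 0.06 (SE) in MA-Line1 (adjusted p = 0.000121, edgeR) and -0.33 ± 0.06 in MC-Line3 (adjusted p = 0.00279, edgeR). Between the lines, summed *LHCB2* differed by -0.29 ± 0.07 (adjusted p = 0.0120, edgeR), and summed *LHCB1* by -0.19 ± 0.06, which missed the threshold (adjusted p = 0.0586, edgeR).

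The minor antenna proteins CP29 (*LHCB4*), CP26 (*LHCB5*) and CP24 (*LHCB6*) connect the LHCII trimers to the photosystem II core. In MA-Line1, 4 of the 5 genes were lower (median -0.39), and in MC-Line3 all 5 were (median -0.24). With library size alone or with only the groups compared, 0 of the 5 were called in MC-Line3. *LHCB5* (*AT4G10340*), the most abundant per kilobase, had 4653 and 4721 CPM in MA-Line1, 5188 and 5186 CPM in MC-Line3, and 6054 and 6146 CPM in Col-0. Its genotypes did not overlap, with log2 fold changes of -0.38 ± 0.06 (SE) in MA-Line1 (adjusted p = 0.00083, edgeR) and -0.23 ± 0.06 in MC-Line3 (adjusted p = 0.0159, edgeR). *LHCB4.1* (*AT5G01530*) fell most in MA-Line1, with 2998 and 3090 CPM there, 3339 and 3596 CPM in MC-Line3, and 4240 and 3964 CPM in Col-0. It too was fully ordered by genotype, at -0.43 ± 0.07 (SE) in MA-Line1 (adjusted p = 0.000855, edgeR) and -0.24 ± 0.07 in MC-Line3 (adjusted p = 0.0242, edgeR). *LHCB6* (*AT1G15820*) fell least in MC-Line3, with 2885 and 3005 CPM in MA-Line1, 3354 and 3424 CPM in MC-Line3, and 3884 and 3844 CPM in Col-0. No genotypes overlapped, and it was at -0.39 ± 0.06 (SE) in MA-Line1 (adjusted p = 0.000864, edgeR) and -0.19 ± 0.06 in MC-Line3 (adjusted p = 0.0466, edgeR).

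*LHCB4.3* (*AT2G40100*, chr2:16745628-16747424), a diverged CP29 copy with 71.8% and 73.0% coding identity to the other copies, was the exception among the 45. It was also the member with the lowest level, 31.95 CPM per kilobase, and had 53.0 and 55.4 CPM in MA-Line1, 36.5 and 39.8 CPM in MC-Line3, and 43.3 and 49.6 CPM in Col-0. MA-Line1 was the highest and MC-Line3 the lowest, without overlap. The increase in MA-Line1 over Col-0 missed the threshold, at 0.22 ± 0.09 (SE, adjusted p = 0.0628, edgeR), and with other settings it ranged from 0.13 to 0.39 and passed in 4 of 16. The decrease in MC-Line3 passed, at -0.28 ± 0.09 (SE, adjusted p = 0.0284, edgeR), and was lost in 7 of the 16 settings, among them each that left out an MA-Line1 or MC-Line3 library and the one without Col-0 replicate 2. MA-Line1 exceeded MC-Line3 by 0.51 ± 0.09 (SE, adjusted p = 0.00178, edgeR), and this held in every setting tried, at 0.46 to 0.57.

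**Figure D3:**
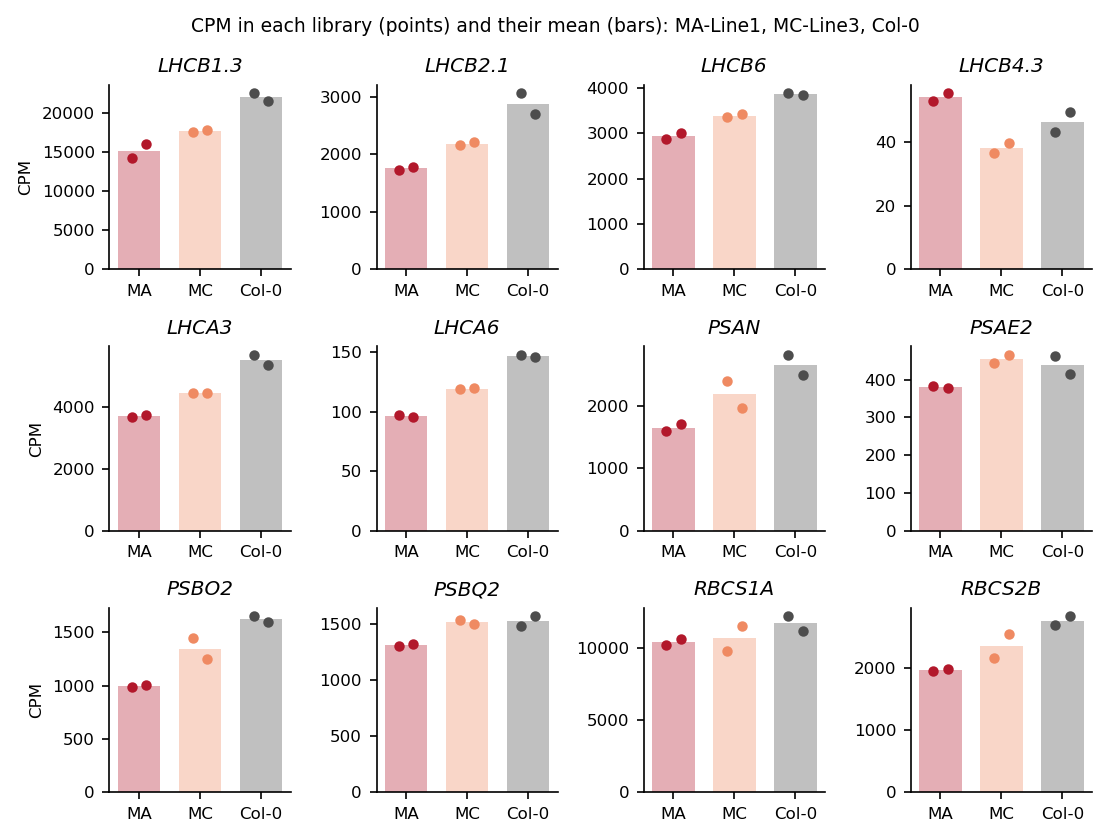
CPM (vertical axes, from 0, a scale of its own for each gene) of 12 members in MA-Line1, MC-Line3 and Col-0 from left to right. Points are libraries and bars are means of 2 libraries. *LHCB4.3* is highest in MA-Line1, with 53.0 and 55.4 CPM, while *LHCB1.3*, *LHCB2.1*, *LHCB6*, *LHCA3*, *LHCA6*, *PSAN*, *PSBO2* and *RBCS2B* are ordered MA-Line1, MC-Line3, Col-0 from low to high.

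The photosystem I antenna had 6 of 6 genes lower in MA-Line1 (median -0.51) and 5 of 6 in MC-Line3 (median -0.26). *LHCA1* to *LHCA4* encode the belt of 4 proteins along one side of the core, while LHCA5 and LHCA6 link photosystem I to the NADH dehydrogenase-like complex. *LHCA4* (*AT3G47470*) was the most abundant per kilobase, with 6045 and 6205 CPM in MA-Line1, 7393 and 7245 CPM in MC-Line3, and 8601 and 8886 CPM in Col-0. The genotypes were apart, with log2 fold changes of -0.51 ± 0.06 (SE) in MA-Line1 (adjusted p = 0.000131, edgeR) and -0.26 ± 0.06 in MC-Line3 (adjusted p = 0.0107, edgeR). *LHCA3* (*AT1G61520*) fell most in MC-Line3, with 3671 and 3726 CPM in MA-Line1, 4437 and 4453 CPM in MC-Line3, and 5677 and 5364 CPM in Col-0. It was at -0.58 ± 0.07 (SE) in MA-Line1 (adjusted p = 7.37e-05, edgeR) and -0.31 ± 0.07 in MC-Line3 (adjusted p = 0.0045, edgeR), again without overlap.

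Both linker genes were low, at about the level of 100 CPM per kilobase. *LHCA6* (*AT1G19150*) fell most of the group in MA-Line1, with 97.5 and 95.2 CPM there, 119 and 120.0 CPM in MC-Line3, and 148 and 146 CPM in Col-0. It was fully ordered, at -0.61 ± 0.07 (SE) in MA-Line1 (adjusted p = 7.05e-05, edgeR) and -0.30 ± 0.07 in MC-Line3 (adjusted p = 0.00704, edgeR). *LHCA5* (*AT1G45474*) had 90.5 and 91.3 CPM in MA-Line1, 114 and 106 CPM in MC-Line3, and 125 and 110.0 CPM in Col-0. Only its MA-Line1 libraries stood apart, at -0.37 ± 0.08 (SE, adjusted p = 0.00492, edgeR), and the value in MC-Line3 was -0.09 ± 0.08 (adjusted p = 0.421, edgeR). Whether *LHCA5* and *LHCA6* differed in their change was not tested.

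Of the 12 photosystem I subunit genes, 11 were lower in MA-Line1 (median -0.38) and 0 passed in MC-Line3 (median -0.12, from -0.28 to 0.05). The group holds the stromal ferredoxin-docking subunits (*PSAD*, *PSAE*), the plastocyanin-docking subunit (*PSAF*), the antenna-binding subunits (*PSAG*, *PSAK*), the subunits at the LHCII docking side (*PSAH*, *PSAL*, *PSAO*) and the lumenal subunit *PSAN*. *PSAN* (*AT5G64040*) had the lowest value in both lines, with 1589 and 1712 CPM in MA-Line1, 2395 and 1967 CPM in MC-Line3, and 2814 and 2487 CPM in Col-0. MC-Line3 lay between the other genotypes, and its libraries differed from each other more than those of MA-Line1. The log2 fold change was -0.68 ± 0.10 (SE) in MA-Line1 (adjusted p = 0.000391, edgeR) and -0.28 ± 0.10 in MC-Line3 (adjusted p = 0.0525, edgeR).

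*PSAO* (*AT1G08380*) was the most abundant of the group per kilobase and had 1773 and 1795 CPM in MA-Line1, 2154 and 2319 CPM in MC-Line3, and 2510 and 2379 CPM in Col-0. The genotypes did not overlap, yet only the change in MA-Line1 passed, at -0.45 ± 0.07 (SE, adjusted p = 0.000559, edgeR), while MC-Line3 was at -0.13 ± 0.07 (adjusted p = 0.19, edgeR). *PSAE2* (*AT2G20260*) had the highest value of the group in both lines, with 384 and 378 CPM in MA-Line1, 443 and 465 CPM in MC-Line3, and 461 and 416 CPM in Col-0. MA-Line1 was below the others, but neither change passed, at -0.20 ± 0.08 (SE) in MA-Line1 (adjusted p = 0.0586, edgeR) and 0.05 ± 0.08 in MC-Line3 (adjusted p = 0.655, edgeR). Its paralogue *PSAE1* was at -0.35 ± 0.07 (SE) in MA-Line1 (adjusted p = 0.00227, edgeR).

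The photosystem II subunits were all lower in MA-Line1, 9 of 9 with a median of -0.46, and 2 of 9 in MC-Line3, with a median of -0.17. With library size alone, 6 of the 9 were called lower in MA-Line1 and 0 in MC-Line3. With only the groups compared, 9 were called lower in MA-Line1 and 0 in MC-Line3. *PSBO*, *PSBP* and *PSBQ* encode the lumenal proteins that shield the oxygen-evolving cluster, PSBR takes part in their binding, and *PSBW*, *PSBX* and *PSBY* encode small membrane proteins. *PSBR* (*AT1G79040*) was the most abundant per kilobase and had 3637 and 3735 CPM in MA-Line1, 4563 and 4486 CPM in MC-Line3, and 5128 and 5096 CPM in Col-0. The genotypes did not overlap, with log2 fold changes of -0.47 ± 0.06 (SE) in MA-Line1 (adjusted p = 0.000229, edgeR) and -0.18 ± 0.06 in MC-Line3 (adjusted p = 0.056, edgeR).

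*PSBO2* (*AT3G50820*, chr3:18890874-18892508), the lesser of the PSBO copies, fell most of the group in both lines. It had 989 and 1005 CPM in MA-Line1, 1445 and 1247 CPM in MC-Line3, and 1649 and 1594 CPM in Col-0. The genotypes were apart, at -0.70 ± 0.08 (SE) in MA-Line1 (adjusted p = 8.26e-05, edgeR) and -0.27 ± 0.08 in MC-Line3 (adjusted p = 0.0268, edgeR). *PSBQ2* (*AT4G05180*) changed least, with 1298 and 1324 CPM in MA-Line1, 1535 and 1496 CPM in MC-Line3, and 1477 and 1566 CPM in Col-0. MC-Line3 lay within the range of Col-0, and the log2 fold change was -0.21 ± 0.07 (SE) in MA-Line1 (adjusted p = 0.0293, edgeR) and -0.01 ± 0.07 in MC-Line3 (adjusted p = 0.958, edgeR).

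The Rubisco small-subunit genes had 2 of 4 lower in MA-Line1 and 0 of 4 in MC-Line3. *RBCS1A* (*AT1G67090*, chr1:25048158-25049667), the main copy, had 10200 and 10586 CPM in MA-Line1, 9810 and 11523 CPM in MC-Line3, and 12179 and 11192 CPM in Col-0. MA-Line1 lay below Col-0 and MC-Line3 spanned MA-Line1, but neither change passed, at -0.17 ± 0.08 (SE) in MA-Line1 (adjusted p = 0.136, edgeR) and -0.13 ± 0.08 in MC-Line3 (adjusted p = 0.261, edgeR). With library size alone the value in MA-Line1 was 0.0002.

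*RBCS2B* (*AT5G38420*, chr5:15380907-15382071) fell most of the *RBCS* genes in MA-Line1, with 1953 and 1987 CPM in MA-Line1, 2168 and 2549 CPM in MC-Line3, and 2689 and 2831 CPM in Col-0. It was the single *RBCS* gene ordered in all libraries, at -0.49 ± 0.08 (SE) in MA-Line1 (adjusted p = 0.00107, edgeR) and -0.23 ± 0.08 in MC-Line3 (adjusted p = 0.0599, edgeR). *RBCS3B* (*AT5G38410*) had 4301 and 4525 CPM in MA-Line1, 4835 and 5644 CPM in MC-Line3, and 5951 and 5488 CPM in Col-0. It was lower in MA-Line1, at -0.37 ± 0.08 (SE, adjusted p = 0.00546, edgeR), and overlapped Col-0 in MC-Line3, at -0.13 ± 0.08 (adjusted p = 0.282, edgeR). *RBCS1B* (*AT5G38430*) had 1374 and 1498 CPM in MA-Line1, 1247 and 1629 CPM in MC-Line3, and 1792 and 1621 CPM in Col-0. The MC-Line3 replicates were further apart than for any other member in that line, and the log2 fold changes were -0.25 ± 0.11 (SE) in both lines (adjusted p = 0.108 in MA-Line1 and 0.123 in MC-Line3, edgeR). Summed, *RBCS* was at -0.26 ± 0.08 (SE) in MA-Line1 (adjusted p = 0.0253, edgeR) and -0.15 ± 0.08 in MC-Line3 (adjusted p = 0.183, edgeR).

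Unequal changes within a family altered its make-up, a value that does not depend on scaling between libraries. *RBCS1A* made up 57.2% and 56.9% of the *RBCS* counts in MA-Line1, 54.3% and 54.0% for MC-Line3, and 53.9% and 53.0% in Col-0. *LHCB1.2* made up 16.8% and 17.1% of the *LHCB1* counts in MA-Line1, 15.4% and 14.4% for MC-Line3, and 13.3% and 14.2% in Col-0. In both families the copy named took its largest share in MA-Line1. *PSBO2* made up 20.3% and 20.3% of the *PSBO* counts in MA-Line1, 24.1% and 20.8% for MC-Line3, and 23.6% in both Col-0 libraries, and *LHCB4.3* made up 1.04% and 1.06% of the *LHCB4* counts in MA-Line1, 0.640% and 0.668% for MC-Line3, and 0.626% and 0.723% in Col-0. MC-Line3 overlapped Col-0 in both. The shares of *LHCB2*, *PSAH* and *PSBQ* copies in MA-Line1 overlapped those in Col-0. These shares are descriptions without a test, and those of *LHCB1*, *LHCB2* and *RBCS* also depend on how reads were divided between copies.

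**Figure D4:**
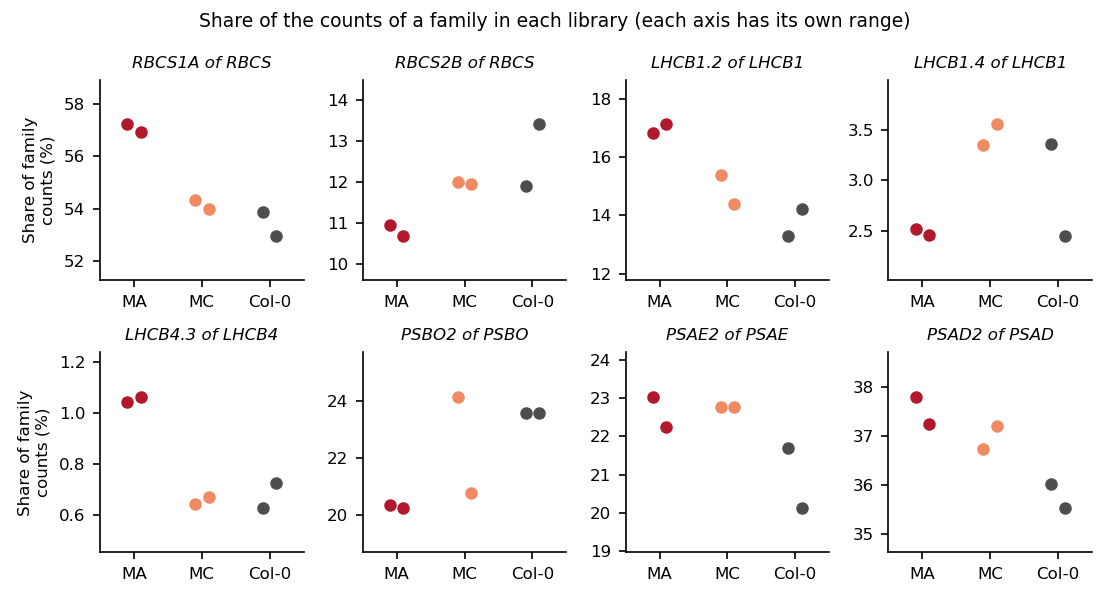
Share of the counts of a gene family (%, vertical axes, each with its own range and not from 0) taken by 8 copies in MA-Line1, MC-Line3 and Col-0 from left to right. Points are libraries. *LHCB4.3* stands at 1.04% and 1.06% of its family in MA-Line1 against 0.626% and 0.723% in Col-0, and *RBCS1A* at 57.2% and 56.9% against 53.9% and 53.0%.

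The promoters were searched for motifs, which the choice of genes did not use, and fewer than 20 of the 45 members held any given one. In the 300 bases around each annotated gene start (250 before it and 50 from it on, TAIR10.1), both strands were searched. The G-box CACGTG was found in 15 of 45 members (33.3%) and in 7.68% of 27443 promoters of protein-coding genes, and the I-box GATAAG in 19 of 45 (42.2%) and 14.6% of promoters. G-boxes were in 6 of 9 promoters of photosystem II subunits and 1 of 9 of LHCII. I-boxes were in 8 of 12 promoters of photosystem I subunits and 1 of 9 of LHCII. The evening element AAAATATCT was in 1 of 45 (2.82% of all promoters), the GCC-box GCCGCC in 2 of 45 (2.57%), and the hypoxia-responsive promoter element (HRPE) in 0 of 45 (0.066%). A match is a string of letters and not a shown binding site, and windows set by an annotated start can miss the start in use. Promoters are printed for the *RBCS* copy that fell most in MA-Line1 and the main copy that did not pass, and for the minor antenna genes *LHCB6*, which fell in both lines, and *LHCB4.3*, which was highest in MA-Line1. They read 5′ to 3′ on the strand of the gene with G-boxes and I-boxes in capitals, from chr5:15382022-15382321 (minus strand), chr1:25049618-25049917 (minus strand), chr1:5447831-5448130 (minus strand) and chr2:16745378-16745677 (plus strand):
RBCS2B: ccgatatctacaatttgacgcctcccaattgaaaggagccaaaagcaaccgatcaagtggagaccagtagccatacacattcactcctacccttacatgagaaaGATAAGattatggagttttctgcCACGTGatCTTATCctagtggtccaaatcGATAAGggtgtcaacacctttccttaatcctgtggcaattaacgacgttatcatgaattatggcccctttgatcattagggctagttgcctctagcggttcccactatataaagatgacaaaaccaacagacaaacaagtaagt
RBCS1A: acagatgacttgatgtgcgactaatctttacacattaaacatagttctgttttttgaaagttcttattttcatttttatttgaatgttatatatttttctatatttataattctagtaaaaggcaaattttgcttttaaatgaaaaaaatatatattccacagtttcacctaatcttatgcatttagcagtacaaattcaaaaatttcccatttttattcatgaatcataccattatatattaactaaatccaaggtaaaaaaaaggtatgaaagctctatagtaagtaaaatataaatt
LHCB6: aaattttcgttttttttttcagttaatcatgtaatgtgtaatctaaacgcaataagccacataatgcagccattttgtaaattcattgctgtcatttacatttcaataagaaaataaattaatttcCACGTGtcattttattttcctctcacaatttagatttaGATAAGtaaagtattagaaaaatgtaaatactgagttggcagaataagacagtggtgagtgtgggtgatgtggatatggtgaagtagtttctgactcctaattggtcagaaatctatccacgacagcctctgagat
LHCB4.3: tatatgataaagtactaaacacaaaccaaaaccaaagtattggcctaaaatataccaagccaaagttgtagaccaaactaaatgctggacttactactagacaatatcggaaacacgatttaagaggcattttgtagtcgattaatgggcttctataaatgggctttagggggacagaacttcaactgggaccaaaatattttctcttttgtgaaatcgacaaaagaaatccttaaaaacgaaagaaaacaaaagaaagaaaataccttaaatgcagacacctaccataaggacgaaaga

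*RBCS2B* held 1 G-box and 3 I-boxes, 1 of them on the opposite strand, and *LHCB6* held 1 of each. The windows of *RBCS1A* and *LHCB4.3* held neither motif. These promoters do not stand for all members. *LHCB1.4* and *PSAN*, which fell in MA-Line1, held neither motif. *PSBQ2*, the photosystem II subunit that changed least, held 2 G-boxes and 1 I-box. Whether motifs and changes go together was not tested. The annotated exons of *RBCS1A* hold 1268 bases against 543 coding bases, so its window may miss the start in use.

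Other nuclear genes of photosynthesis were counted in the same fit. Of all genes tested, 19.1% were lower and 18.0% higher in MA-Line1, and 16.7% were lower and 14.5% higher in MC-Line3. Among 17 further genes of the Calvin-Benson cycle, 15 were lower and 0 higher in MA-Line1 (median -0.50), and 9 were lower and 0 higher in MC-Line3 (median -0.27). *CP12-2*, which encodes a small regulator of the cycle, was lowest in MA-Line1 at a log2 fold change of -1.10, and *RCA*, which encodes Rubisco activase, was lowest in MC-Line3 at -0.54. Among 11 genes of electron transport and ATP synthase, 8 were lower and 0 higher in MA-Line1 (median -0.38), with *ATPC1* of the ATP synthase at -0.60. In MC-Line3, 2 of them were lower and 0 higher (median -0.12), with the ferredoxin gene *FD2* at -0.36. That count was near the share of all genes called lower. Chlorophyll synthesis had 7 of 13 genes lower and 0 higher in MA-Line1 (median -0.32), and 6 lower and 0 higher in MC-Line3 (median -0.12), where *PORA*, a protochlorophyllide oxidoreductase counted at under 1 CPM in every library, was at -1.42.

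Among 8 regulators of photosynthesis genes, 5 were lower and 0 higher in MA-Line1, while MC-Line3 had 7 lower and 0 higher. Of all genes tested, 19.1% were lower in MA-Line1 and 16.7% in MC-Line3. *GLK2*, a transcription factor that activates antenna and chlorophyll genes, had 116 and 122 CPM in MA-Line1, 139 and 130 CPM in MC-Line3, and 219 and 202 CPM in Col-0. Both lines lay below Col-0, by a log2 change of -0.82 for MA-Line1 and -0.64 for MC-Line3. The GATA factors *GNC* (-0.53 in MA-Line1, -0.68 in MC-Line3) and *CGA1* (-0.83 in MA-Line1, -0.89 in MC-Line3) were also lower in each line. So were the light-signalling factor *HY5* (-0.34 in MA-Line1, -0.39 in MC-Line3) and *GUN1* of plastid signalling (-0.46 in MA-Line1, -0.36 in MC-Line3). The other *GLK* gene of the list, *GLK1*, was at 0.08 in MA-Line1 and -0.10 in MC-Line3 without a call. *PIF1* and *PIF3*, phytochrome-interacting repressors of chlorophyll synthesis, were at 0.04 and -0.05 in MA-Line1 without a call, and at -0.34 and -0.56 in MC-Line3 with one. In the direct test MA-Line1 exceeded MC-Line3 for both, by 0.38 and 0.51. Against 19.1% and 16.7% of all genes, 3 of 10 clock genes were lower in MA-Line1 and 4 in MC-Line3. None of the 10 was higher in a line. The Col-0 libraries differed across this list: replicate 1 was the higher for 7 genes and replicate 2 for 3. In Col-0 replicates 1 and 2, *LUX* had 23.8 and 10.2 CPM, *TOC1* 46.5 and 29.0 CPM, and the morning gene *CCA1* 108 and 147 CPM. The part of this difference in the counts of clock genes was not tested.

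**Figure D5:**
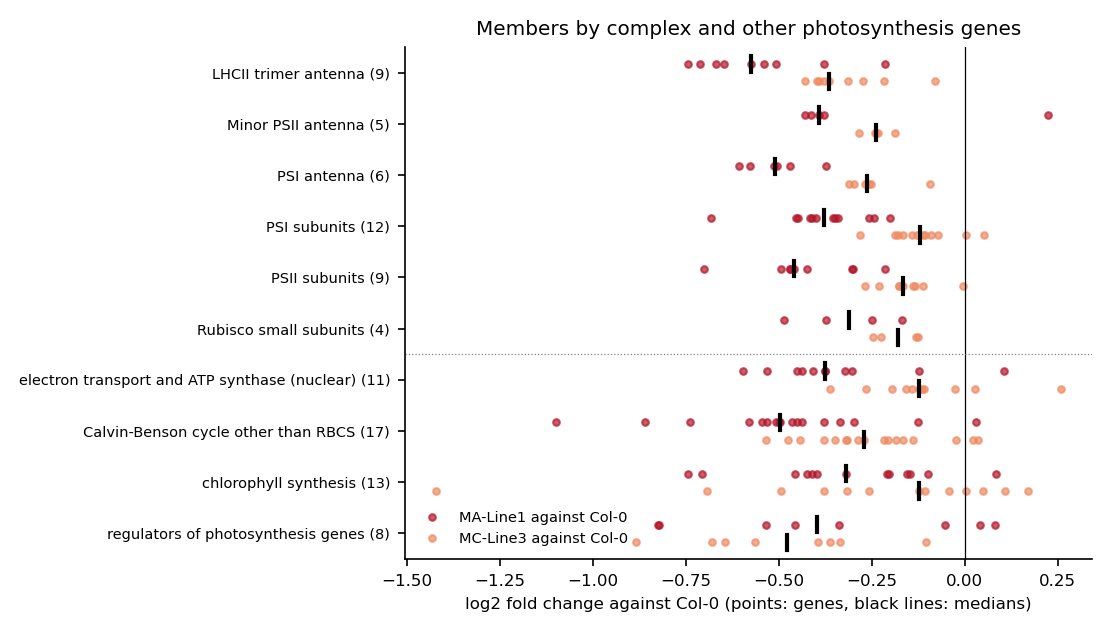
Log2 fold change against Col-0 (horizontal axis, 0 marked) of the members by complex (above the dotted line) and of 4 further lists (below it), with the number of genes in brackets. Points are genes in MA-Line1 (dark) and MC-Line3 (light), and black lines are medians. Medians in MA-Line1 run from -0.58 for LHCII to -0.31 for *RBCS*, and the regulators are the single list with a lower median in MC-Line3 (-0.48) than in MA-Line1 (-0.40).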

How the data were processed

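Whole seedlings of each genotype gave 6 RNA libraries in all (polyA selection, TruSeq kit, paired ends). As the study's methods state, the authors filtered reads with the FASTX toolkit and Trimmomatic, aligned them with TopHat2 to TAIR10 and counted them with HTSeq. The deposited table gives each gene's read count as a whole number, not normalized. The strand setting and the counting mode are not given in the sources used here. Columns were assigned to samples by construct and replicate number, since those of the MC line carry another line number (line 1) in the table than in the labels, and 0 columns were left unmapped. The design text calls the replicates independent biological replicates. Of 28775 genes, 28009 (97.3%) were found in the TAIR10.1 annotation, and 4158 had no count.

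Tests were run in R 4.3.3 with edgeR 4.0.16: TMM scaling, the default expression filter, a single fit over all 6 libraries with genotype means, and the quasi-likelihood test with Benjamini-Hochberg adjustment over all genes tested, with calls at an adjusted p below 0.05. The SE of a log2 fold change is its size over the square root of F. The procedure was tested on simulated data. The members and lists were chosen with earlier results of these data known. Values of every library were to be given for the member with the most counts per kilobase of each complex and those with the highest and lowest log2 fold change in each line. From the other lists of photosynthesis and clock genes, a gene was named if it had the highest or lowest change and was called, and any regulator that was called. *GLK1*, *PRR5*, *LUX*, *TOC1*, *CCA1* and the root markers *COBL9* and *SCR* were named outside this rule. Alternatives were DESeq2 1.42.0 (size factors, Wald test), library size alone, other filters, other edgeR tests, fitting only the groups compared, a replicate block, and leaving out each library.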

Additional observations from a re-analysis of the deposited data

Results flagged for a closer look

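For 30 members the effect against Col-0 differed between the lines when MA-Line1 was tested directly against MC-Line3 (edgeR's quasi-likelihood test, adjusted p below 0.05). The log2 differences of MA-Line1 minus MC-Line3 follow. In LHCII they were -0.23 for *LHCB1.3*, -0.66 for *LHCB1.4*, -0.27 for *LHCB1.5*, -0.31 for *LHCB2.1* and -0.30 for *LHCB2.2*. In the minor antenna they were 0.51 for *LHCB4.3* and -0.20 for *LHCB6*. In the photosystem I antenna they were -0.25 for *LHCA1*, -0.20 for *LHCA2*, -0.27 for *LHCA3*, -0.26 for *LHCA4*, -0.28 for *LHCA5* and -0.31 for *LHCA6*. Among photosystem I subunits they were -0.26 for *PSAD1*, -0.23 for *PSAD2*, -0.24 for *PSAE1*, -0.25 for *PSAE2*, -0.24 for *PSAG*, -0.28 for *PSAH1*, -0.25 for *PSAK*, -0.27 for *PSAL*, -0.40 for *PSAN* and -0.33 for *PSAO*. Among photosystem II subunits they were -0.25 for *PSBO1*, -0.43 for *PSBO2*, -0.29 for *PSBP1*, -0.30 for *PSBR*, -0.36 for *PSBW* and -0.24 for *PSBY*, and *RBCS2B* had -0.26. Without 1 library of either line, between 2 and 8 of the 45 members were called. Groups of 2 libraries allow no check for a library that lies far from the others of its group.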

How the results depend on the processing

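With 2 libraries per genotype, the number of members called moved with the libraries kept, most of all between the lines. In MA-Line1 against Col-0, between 30 and 43 members were called when 1 library was left out, and 30 of the 41 were called in every setting. In MC-Line3 against Col-0 the range was 11 to 29, with 7 for library size alone and 10 for only the groups compared, and 7 of the 20 were called in every setting. For MA-Line1 against MC-Line3 it was 2 to 37, and 1 of the 30 (*LHCB4.3*) was called in every setting. Over all genes, leaving out 1 library gave 4379 to 8413 calls in MA-Line1, 3536 to 7476 in MC-Line3 and 2124 to 6074 between the lines. Library size alone moved the higher share of calls to 73.5% for MA-Line1 and 69.5% for MC-Line3, against 48.4% and 46.5% with TMM. The replicate numbers did not pair the libraries: the log2 differences between replicates correlated across genes with r = -0.013 for MA-Line1 and MC-Line3, -0.053 for MA-Line1 and Col-0, and 0.032 for MC-Line3 and Col-0. With the replicate block, 40, 14 and 15 members were called for MA-Line1 against Col-0, MC-Line3 against Col-0 and MA-Line1 against MC-Line3. The cause was not tested in any of these.

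Mean share ratios against Col-0 that changed side were those of MC-Line3 for photosystem I subunits (0.968 to 1.01 when 1 library was left out) and *RBCS* (0.901 to 1.07). Outside the 10 most counted other genes, the ratio of photosystem II subunits was 0.822 for MA-Line1 and 0.971 for MC-Line3. No called member changed direction. Of uncalled values near 0, library size alone turned those in MC-Line3 against Col-0 to 0.0514 (*LHCB1.4*), 0.0352 (*LHCA5*), 0.0156 (*PSAD2*), 0.0218 (*PSAE1*), 0.0571 (*PSAH1*), 0.0377 (*PSAH2*), 0.0169 (*PSBQ1*), 0.121 (*PSBQ2*) and 0.0023 (*RBCS3B*), that of *RBCS1A* in MA-Line1 to 0.0002, and those of MA-Line1 against MC-Line3 to 0.0030 (*RBCS1A*) and 0.0374 (*RBCS1B*). *PSAK* in MC-Line3 was -0.0122 with DESeq2 size factors and with DESeq2's test, -0.0035 with at least 10 counts in every library and -0.0038 with only the groups compared. Between the lines, *RBCS1B* was 0.0050 with DESeq2 size factors and test, 0.0097 with at least 10 counts, 0.0056 with only the groups compared and 0.0030 with the replicate block, where *LHCB1.2* was -0.0012. Without 1 library, other uncalled values changed sign within these ranges: in MC-Line3 against Col-0, *LHCB1.4* ranged from -0.299 to 0.161, *PSAE2* ranged from -0.0295 to 0.12, *PSAH1* ranged from -0.183 to 0.0313, *PSAK* ranged from -0.0582 to 0.0568 and *PSBQ2* ranged from -0.0552 to 0.0295, and in MA-Line1 against MC-Line3 *LHCB1.2* ranged from -0.0854 to 0.0839, *RBCS1A* ranged from -0.136 to 0.083 and *RBCS1B* ranged from -0.169 to 0.203. The older form of the quasi-likelihood test is the default of this edgeR version and was therefore the test used. Its newer form, added after seeing the data, called 41, 20 and 29 members in the same 3 comparisons.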
